A study of Mus musculus with 6 samples.

Results

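The microRNAs miR-320 and miR-484 reach their mature form by a route that skips Drosha, the nuclear nuclease, but still needs Dicer. They were taken by assay name, 2 of the 517 microRNA assays measured in whole mouse aortas. Both were detected, with a threshold cycle (Ct) below 35, in all 6 aortas. The aortas came from male mice of 2 groups of 3. The Dicer_KO group was LysM-Cre/Dicerflox/flox/Apoe-/-, in which Cre from the lysozyme M locus, active in macrophages, monocytes and neutrophils, deletes the floxed Dicer alleles. The Dicer_WT group was made up of LysM-Cre/Dicerwt/wt/Apoe-/- littermates, which carry the same Cre and 2 wild-type Dicer alleles. Every mouse lacked Apoe, which predisposes to atherosclerosis, and ate a high-fat diet with 21% crude fat for 12 weeks from an age of 6 to 8 weeks. Each microRNA was read once per aorta by TaqMan PCR, on a scale where each cycle fewer stands for roughly a doubling of the RNA, so the number of aortas limits the precision.

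In the usual route, Drosha with its partner DGCR8 cuts a hairpin out of a long transcript in the nucleus, and Dicer cuts that hairpin in the cytoplasm into the mature duplex. The precursors of miR-320 and miR-484 are instead transcribed directly as short hairpins with a capped 5′ end, so that no Drosha cut is needed and Dicer makes the only cut. Mouse embryonic stem cells without DGCR8 are known to keep these microRNAs, and those without Dicer to lose them. In the rodent heart, miR-320 is known to target the small heat shock protein Hsp20 and miR-484 the mitochondrial fission protein Fis1.

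Mirtrons are a further class that skips Drosha, since splicing of a short intron frees the hairpin. The opposite bypass is that of miR-451, whose precursor is cut by Drosha, is too short for Dicer and is trimmed by Ago2. The microRNA sequence table (GRCm38.p6) matched 1 of the 2 members by name, miR-484, whereas the RefSeq gene annotation holds the genes of both. The gene of miR-484 lies on chromosome 16 with Marf1 as the nearest protein-coding gene. That of miR-320 lies on chromosome 14 next to Polr3d, which encodes a subunit of RNA polymerase III. The mature miR-484 is at chr16:14159630-14159651 on the plus strand, and its seed is in capitals in the first line. The next lines show 1 hairpin of each route, with a mature RNA in capitals: Mir484 (chr16:14159626-14159692, plus strand), Mir877 (chr17:35960730-35960814, minus strand) and Mir451a (chr11:78073170-78073241, plus strand).
miR-484: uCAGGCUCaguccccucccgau
Mir484 hairpin: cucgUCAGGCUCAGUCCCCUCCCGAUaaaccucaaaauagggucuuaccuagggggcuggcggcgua
Mir877 hairpin: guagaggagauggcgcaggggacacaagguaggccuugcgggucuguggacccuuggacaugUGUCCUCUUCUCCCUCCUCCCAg
Mir451a hairpin: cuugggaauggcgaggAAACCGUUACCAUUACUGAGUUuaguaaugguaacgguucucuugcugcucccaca
In the miR-484 hairpin the mature RNA starts at base 5 of 67, and its bases 2 to 8 form a seed shared by 0 of the other mature mouse microRNAs in the table, which holds 1679 in all. The miR-877 hairpin starts with GU and ends with AG, as an intron does, and overlaps the gene Abcf1, with miR-877-5p at bases 1 to 20 and miR-877-3p, in capitals, at bases 63 to 84. The mature miR-451 spans bases 17 to 38 of 72 and so runs from the 5′ arm into the loop, where Dicer would have cut.

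The tissue label was met by the smooth muscle microRNA miR-145, whose Ct was 12.4 ± 0.465 in Dicer_KO and 11.8 ± 0.237 in Dicer_WT aortas (SD, n = 3 each), and by the endothelial miR-126-3p, at 16.2 ± 0.327 in Dicer_KO and 16.0 ± 0.0297 in Dicer_WT aortas. The labels also give macrophage as the cell type, and the myeloid miR-223 had a Ct of 21.5 ± 0.433 in Dicer_KO and 19.6 ± 0.468 in Dicer_WT aortas. The striated muscle miR-133a was present too, at 18.0 ± 0.509 in Dicer_KO and 17.5 ± 0.210 in Dicer_WT aortas, and so was the liver miR-122, at 22.2 ± 0.390 in Dicer_KO and 23.4 ± 1.501 in Dicer_WT aortas. Dicer itself was not assayed, so the genotypes had no check in these data.

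Of the 2 members miR-484 was the more readily amplified. Its Ct was 19.0, 19.2 and 19.5 in the Dicer_KO aortas, against 18.3, 18.4 and 18.4 in the Dicer_WT aortas. By mean Ct in Dicer_WT aortas it ranked 20th among the 247 assays of its array card with a mean below 35, between miR-99b and miR-21. The Ct of miR-320 was 22.1, 22.7 and 23.0 in the Dicer_KO aortas, against 21.6, 22.1 and 22.0 in the Dicer_WT aortas. It ranked 78th on the same card, between miR-139-5p and miR-101a. These ranks compare assays with their own primers and are approximate.

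On the relative scale deposited by the authors, a linear ratio to reference RNAs that averages about 1 in Dicer_WT aortas, both microRNAs lay lower in every Dicer_KO aorta. For miR-484 the relative quantity was 0.679, 0.697 and 0.551 in Dicer_KO aortas, against 0.916, 1.00 and 1.09 in Dicer_WT aortas. The groups were apart, with means of 0.642 ± 0.0795 in Dicer_KO and 1.00 ± 0.0864 in Dicer_WT aortas (SD, n = 3 each). For miR-320 it was 0.884, 0.699 and 0.575 in Dicer_KO aortas, against 1.07, 0.929 and 1.01 in Dicer_WT aortas. These groups were apart as well, but Dicer_KO replicate 1 lay close to Dicer_WT replicate 2, and the means were 0.719 ± 0.155 in Dicer_KO and 1.00 ± 0.0712 in Dicer_WT aortas (SD, n = 3 each). In bulk aortas, fewer cells holding a microRNA and less of it per cell cannot be told apart.

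**Figure D1:**
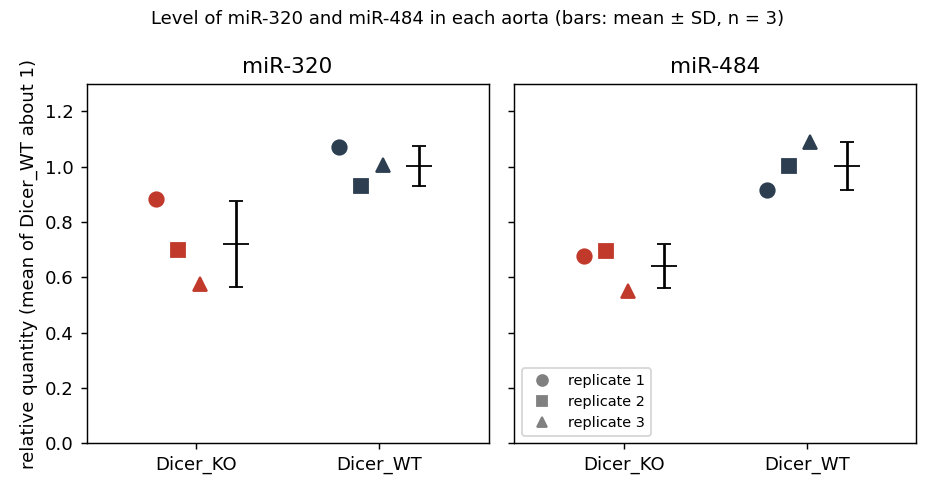
Relative quantity (linear, vertical axis) of miR-320 and miR-484 in each aorta, Dicer_KO left of Dicer_WT, with marker shapes for replicates and black bars for the mean ± SD. The 3 Dicer_KO points lie below the 3 Dicer_WT points in both panels, with miR-320 of Dicer_KO replicate 1 at 0.884.

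Neither difference passed the test over all assays. The log2 fold change of miR-484, Dicer_KO minus Dicer_WT, was -0.65 ± 0.184 (SE, 95% interval -1.10 to -0.19, limma adjusted p = 0.101 over 377 assays), a fold of 0.639. That of miR-320 was -0.50 ± 0.216 (SE, 95% interval -1.03 to 0.03, limma adjusted p = 0.203), a fold of 0.708. In the same fit 7 of 377 assays were called lower (1.86%) and 0 higher (0%). Before adjustment, 92 assays lay lower (24.4%) and 9 higher (2.39%) with p under 0.05. Without Dicer_KO replicate 1, 55 assays were called lower and 9 higher, and both members still missed the threshold (limma adjusted p = 0.0686 for miR-320 and 0.0701 for miR-484). The authors' deposited table gives folds of 0.641 for miR-484 and 0.718 for miR-320, ratios of arithmetic means.

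Both members lay in the bulk of all fold changes. Groups set apart with Dicer_KO lower were found for 123 of 377 assays (32.6%), miR-320 and miR-484 among them, so that this feature was shared by many assays. Of the 377 log2 fold changes, 295 (78.2%) were below 0 and the median was -0.42. A lower value than that of miR-484 was found for 112 assays (29.7%), and a lower value than that of miR-320 for 159 (42.2%). The quartiles over all assays were -0.75 and -0.09, with both members between them.

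The members were also set beside assays of like Ct. On the same card, 24 other assays had a Dicer_WT mean Ct within 1 cycle of miR-484, with a median log2 fold change of -0.46 and 4 of them lower than miR-484. For miR-320 there were 31 such assays with a median of -0.42, 13 of them lower than miR-320. None of these 24 or 31 assays was called by limma, beside 1.86% of all 377, a share too small to set them apart. An unadjusted p under 0.05 was found for 6 of the 24 and 10 of the 31, beside the 24.4% lower and 2.39% higher over all 377. The neighbours next to miR-484 in Ct were let-7c, miR-99b, miR-21 and let-7b, with log2 fold changes of -0.61, -0.77, -0.54 and -0.64. Those next to miR-320 were miR-10b, miR-139-5p, miR-101a and miR-497, with -0.05, 0.05, -0.20 and -0.31, all nearer to 0 than miR-320 at -0.50.

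**Figure D2:**
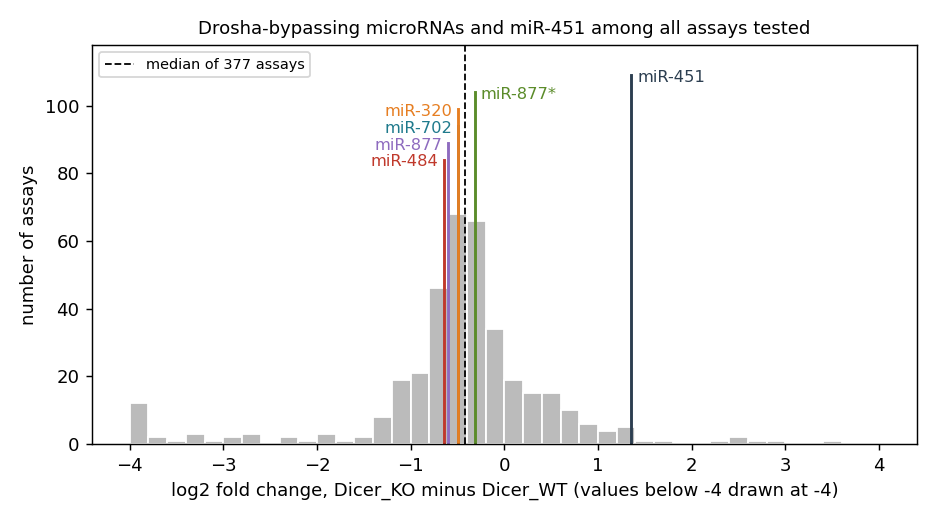
Histogram of log2 fold changes (Dicer_KO minus Dicer_WT, horizontal axis) over 377 assays, with the number of assays on the vertical axis, a dashed line at the median of -0.42 and coloured lines at microRNAs that skip Drosha and at miR-451. Lines of miR-484, miR-877, miR-702, miR-320 (drawn over that of miR-702) and miR-877* stand in the bulk between -0.65 and -0.31, and miR-451 stands at 1.36.

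The members were next set against the median of the 330 assays detected in all 6 aortas, aorta by aorta. That median was itself lower in Dicer_KO aortas, at -0.21, -0.37 and -0.57 on the log2 scale, against 0.10, 0.08 and -0.17 in Dicer_WT aortas. After its subtraction miR-320 stood at 0.03, -0.14 and -0.23 in Dicer_KO aortas, against 0.003, -0.19 and 0.18 in Dicer_WT aortas. The groups overlapped and their means differed by -0.11 (exact permutation p = 0.5, two-sided, where 3 against 3 allows no p below 0.1). Relative to the same median miR-484 stood at -0.35, -0.15 and -0.29 in Dicer_KO aortas, against -0.22, -0.08 and 0.29 in Dicer_WT aortas. These groups overlapped as well and their means differed by -0.26 (exact permutation p = 0.2). Benjamini-Hochberg adjustment over the 5 permutation tests made on the members gave 0.5 for miR-320 and 0.333 for miR-484.

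The size of these remainders rested on single aortas. Without Dicer_WT replicate 3, in which both members stood highest above the median, the difference was -0.02 for miR-320 and -0.11 for miR-484 (exact permutation p = 0.8 and 0.4). For miR-320 it was -0.20 without Dicer_WT replicate 2, -0.18 without Dicer_KO replicate 1 and -0.05 without Dicer_KO replicate 3. A limma fit on values centred on this median, added after the data had been seen, gave a 95% interval of -0.48 to 0.26 for miR-320 (adjusted p = 0.679) and of -0.69 to 0.17 for miR-484 (adjusted p = 0.391). Differences from the median assay of up to these bounds were therefore not resolved.

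Within their groups both members varied less than the typical assay. After subtraction of the median, the pooled standard deviation within groups was 0.159 for miR-320 and 0.202 for miR-484 on the log2 scale, against a median of 0.249 over the 330 assays, which puts them at ranks 93 and 126 from the steadiest. On the deposited scale the order of the members was turned, with 0.158 for miR-484 (rank 32 of 330) and 0.231 for miR-320 (rank 100), against a median of 0.316. The ratio of relative quantities, miR-320 to miR-484, was compared too, each centred on its own Dicer_WT mean. A value above 0 thus does not mean more miR-320 than miR-484. On the log2 scale the ratio was 0.38, 0.005 and 0.06 in Dicer_KO aortas, against 0.23, -0.11 and -0.12 in Dicer_WT aortas. The means differed by 0.15 and the groups overlapped (exact permutation p = 0.5, adjusted 0.5), so no difference between both members in their response was resolved.

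The members' fold changes differed in size with the RNA they were scaled to, and miR-320 changed sign against 1 of the 5 control RNAs, Y1, while miR-484 was below 0 against all 5. Control RNAs on these cards are small nuclear, nucleolar and Y RNAs that are made without Dicer. Relative to U6, the spliceosomal RNA, the log2 fold change was -0.66 for miR-320 and -0.81 for miR-484. Relative to the nucleolar snoRNA135 and snoRNA202 it was -0.43 and -0.40 for miR-320 and -0.58 and -0.55 for miR-484. Relative to the small nucleolar RNA U87 it was -0.03 for miR-320 and -0.17 for miR-484, and relative to Y1, the RNA of Ro particles, 0.05 and -0.10. The raw Ct of U87 and Y1 on this card was later by 0.698 and 0.776 cycles in Dicer_KO than in Dicer_WT aortas, that of snoRNA135 and snoRNA202 by 0.297 and 0.319 and that of U6 by 0.0603. Which of these RNAs stayed level was not tested.

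The median of the 330 assays moved with the members under each scaling. Apart from quantile normalization, each scaling shifts all assays of an aorta and card by the same amount, so moving together was built in. Relative to U87 and Y1 together it was 0.19, with miR-320 at 0.01 and miR-484 at -0.13 (limma adjusted p = 0.971 and 0.685). Relative to U6 alone it was -0.58, with miR-320 at -0.66 and miR-484 at -0.81 (adjusted p = 0.288 and 0.217). Quantile normalization, which brings the distributions of the aortas together, left miR-484 at -0.43 and miR-320 at -0.12 beside a median of 0.02 (adjusted p = 0.170 and 0.713). Over the 8 scalings drawn, both members had a lower log2 fold change than the median assay. The differences from it ran from -0.18 to -0.05 for miR-320 and from -0.44 to -0.20 for miR-484. They largely restate the same comparison and are not separate support. No scaling brought either member past the threshold.

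**Figure D3:**
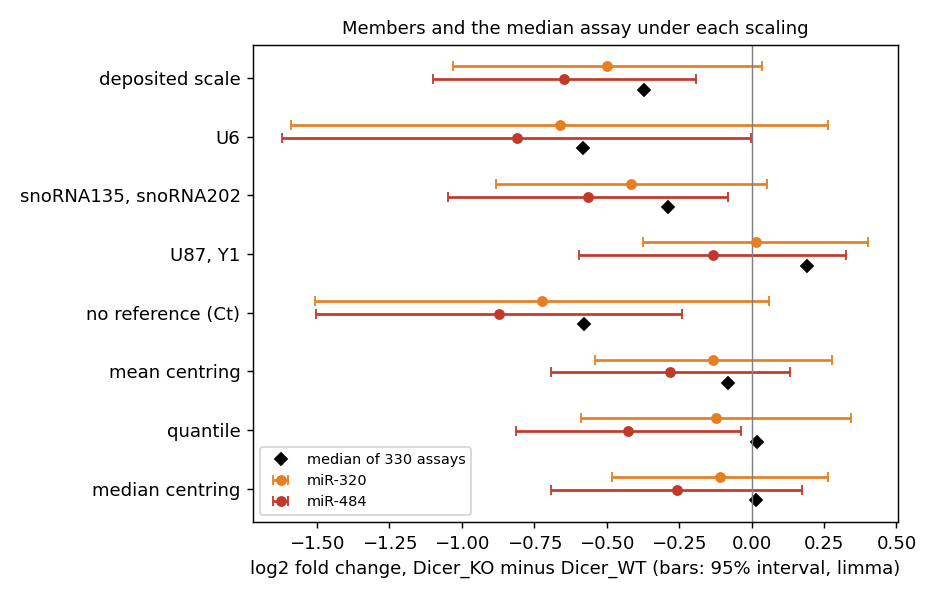
Log2 fold change, Dicer_KO minus Dicer_WT (horizontal axis), of miR-320 and miR-484 with 95% limma intervals under 8 scalings (rows), with diamonds for the median of the 330 assays detected in all aortas. Points of both members shift together with the diamond, which all scalings but the quantile one build in. With U87 and Y1 as the scale miR-320 stands at 0.01 and the diamond at 0.19.

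Of 6 names listed as skipping Drosha or DGCR8, 5 assays were on the array, the members and 3 mirtron assays. By limma 0 of the 5 were called, beside 1.86% of all 377, so this count says little about the list. At an unadjusted p under 0.05 there were 2, beside 24.4% lower over all 377. All 5 had a log2 fold change below 0, as had 78.2% of all assays, with a median of -0.50 beside -0.42 over all 377. In 3, the members themselves and miR-702, the groups were apart with Dicer_KO lower, beside 32.6% of all assays. For miR-702, a mirtron in the gene Plod3, the relative quantity was 0.673, 0.675 and 0.782 in Dicer_KO aortas, against 1.07, 0.916 and 1.02 in Dicer_WT aortas. Its groups were apart, and the log2 fold change came to -0.50 ± 0.170 (limma adjusted p = 0.142, SE), close to that of miR-320.

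The miR-877 hairpin shown above gives 2 assays. For miR-877 the relative quantity was 0.894, 0.699 and 0.463 in Dicer_KO aortas, against 1.35, 1.04 and 0.711 in Dicer_WT aortas. For miR-877*, the other arm, it was 1.12, 0.733 and 0.637 in Dicer_KO aortas, against 1.11, 0.853 and 1.05 in Dicer_WT aortas. Both overlapped between the groups, and the log2 fold changes came to -0.60 ± 0.352 and -0.31 ± 0.269 (limma adjusted p = 0.274 and 0.401, SE). After subtraction of the median assay, the groups of all 3 mirtron assays overlapped.

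The microRNA with the reverse requirement, miR-451, stood at a log2 fold change of 1.36 ± 0.532 (limma adjusted p = 0.176, SE). Its relative quantity was 2.50, 3.12 and 2.15 in Dicer_KO aortas, against 1.91, 1.14 and 0.461 in Dicer_WT aortas. The groups were apart with Dicer_KO higher, as for 9 of 377 assays (2.39%), and Dicer_WT replicate 3 was the lowest by far. The log2 ratio of relative quantities, miR-320 to miR-451, was -1.50, -2.16 and -1.90 in Dicer_KO aortas, against -0.83, -0.29 and 1.13 in Dicer_WT aortas. That of miR-484 to miR-451 was -1.88, -2.16 and -1.96 in Dicer_KO aortas, against -1.06, -0.18 and 1.24 in Dicer_WT aortas. Each of the 3 Dicer_KO aortas had lower ratios than any Dicer_WT aorta. The means differed by -1.85 for miR-320 and by -2.003 for miR-484 (exact permutation p = 0.1 each, the smallest possible, adjusted 0.25). On the deposited scale the groups of the members and of miR-451 were already apart, in opposite directions. This separation and its p were thus fixed beforehand and add nothing about the members. The larger part of each difference was the 1.36 of miR-451, beside -0.50 for miR-320 and -0.65 for miR-484. Without Dicer_WT replicate 3 the differences were -1.29 and -1.38. The log2 fold change of the erythroid miR-486 was above 0 as well, at 1.12 ± 0.484 (limma adjusted p = 0.202, SE), and that of the hepatic miR-122 was 1.36 ± 0.687 (limma adjusted p = 0.228), and the part of blood or other tissue left with the vessel was not tested.

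**Figure D4:**
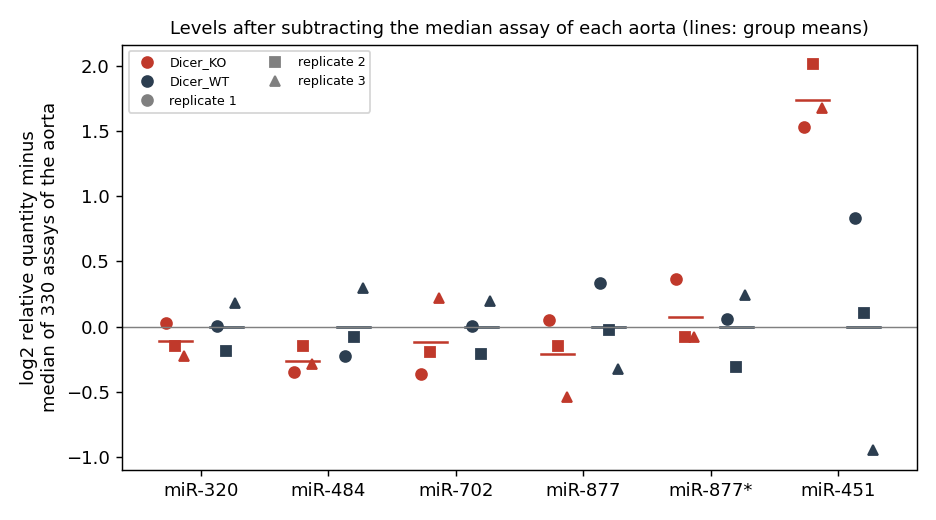
Log2 relative quantity minus the median of the 330 assays of the same aorta (vertical axis) for 6 microRNAs, Dicer_KO left of Dicer_WT, with marker shapes for replicates and lines for group means. Points of the Drosha-skipping assays lie between -0.54 and 0.37 with overlapping groups, and those of miR-451 lie at 1.53, 2.01 and 1.68 in Dicer_KO aortas, against 0.84, 0.10 and -0.95 in Dicer_WT aortas.

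Both members are found in many cell types, whereas miR-223 and miR-511 are enriched in the myeloid cells that express the Cre. The log2 fold changes of these myeloid microRNAs came to -1.66 ± 0.346 and -1.99 ± 0.340 (limma adjusted p = 0.0641 and 0.0542, SE), beside -0.50 for miR-320 and -0.65 for miR-484. On which side of the threshold they fell depended on the processing. With a Ct cutoff of 32, miR-223 and miR-511 passed the threshold (limma adjusted p = 0.0426 and 0.0333), as they did over assays detected in all aortas (0.0389 and 0.0317). The value of miR-511 also passed relative to U6 alone (0.0163), without normalization (0.0268), with undetected wells missing (0.0365), with Ct 40 as measured (0.0486), without Dicer_KO replicate 1 (0.0416) and without Dicer_KO replicate 2 (0.0105). Over all alternatives the adjusted p ran from 0.0293 to 0.243 for miR-223 and from 0.0105 to 0.193 for miR-511, and both log2 fold changes were below 0 throughout. The difference between the myeloid microRNAs and the members was not tested.

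Since miR-484 and miR-320 are often considered as reference RNAs for PCR, 12 microRNAs in wide use for that purpose were set beside them. Of these, 11 had a log2 fold change below 0, with a median of -0.46, beside 78.2% below 0 over all assays. By limma 0 of the 12 were called, beside 1.86% of all assays, so this count says little about them. At an unadjusted p under 0.05 there were 3, beside 24.4% lower over all assays. A lower value than that of miR-484 was found for 4 of the 12, and the same number lay below miR-320. The widest were miR-423-5p at -4.75 and miR-103 at -0.78 (limma adjusted p = 0.219 and 0.0746). The value of miR-423-5p came from wells without product, as its Ct was 27.0, 40 and 40 in Dicer_KO aortas, against 26.6, 27.5 and 28.0 in Dicer_WT aortas. Nearest to 0 were miR-30e at -0.13 and miR-26b at -0.21 (limma adjusted p = 0.573 and 0.401). After subtraction of the median assay the spread within groups of the 11 detected in all aortas ran from 0.0437 for miR-191 and 0.0475 for miR-26b to 0.234 for miR-93 and 0.252 for miR-186, with miR-320 at 0.159 and miR-484 at 0.202 inside that range. It was wider than that of miR-320 for miR-361 (0.171), miR-25 (0.186) and let-7a (0.194) too.

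The pattern of each member over the 6 aortas, after subtraction of the median assay, was compared with that of the 329 other assays detected in all aortas. These correlations are descriptions over 6 points that share their reference RNAs and, within a card, their plate, and the closest were picked from all 329. For miR-320 the closest were miR-196b, from a Hox gene cluster (Pearson r = 0.99), miR-690 (0.95), let-7g* (0.94), miR-744 (0.93) and miR-672 (0.87). Their log2 fold changes were -0.62, -0.71, -0.61, -0.49 and -0.56. The groups were apart with Dicer_KO lower for miR-196b and miR-744, and overlapped for miR-690, let-7g* and miR-672. For miR-484 they were miR-532-3p (0.94), miR-127 (0.89) and miR-409-3p (0.85), of which miR-127 and miR-409-3p come from the imprinted Dlk1-Dio3 locus, then miR-324-5p (0.83) and miR-340-3p (0.80). Their log2 fold changes were -0.60, -0.63, -0.84, -0.72 and -0.72, and in all 5 the groups were apart with Dicer_KO lower, as for 32.6% of all assays. These 5 were chosen for following miR-484 after subtraction of the median, where its own groups overlapped. Groups apart were read on the deposited scale, where those of miR-484 were apart. How far the choice bears on that count was not tested. The members were not each other's closest match, with r = 0.54, at rank 48 from miR-320 and rank 44 from miR-484.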

How the data were processed

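Per the labels' protocols, total RNA of whole aortas was isolated with a mirVana kit, reverse-transcribed and preamplified with TaqMan reagents. The labels name no cycler, threshold, array version or batch. The authors deposited 1 table of non-normalized Ct, with 40 for wells without product, 1 of relative quantities and 1 of fold changes. From the values, log2 of the deposited relative quantity, a linear ratio, equals the mean Ct of U6, snoRNA135 and snoRNA202 (with snoRNA429 on the second card) minus the assay's Ct, centred on the Dicer_WT mean (largest difference 5.2e-06). The authors' deposited folds equal ratios of arithmetic means within 0.1% for 515 of 517 assays. Decimal commas, found in 5 cells, were read as points.

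Wells not below Ct 35 were set to 35. Assays below 35 in at least 2 aortas of a group (377 of 517) were fitted with limma 3.58.1 in R 4.3.3 (lmFit, eBayes, two-sided). The p-values were adjusted by Benjamini-Hochberg across the fit, with a threshold of 0.05. The limma step alone was also run on simulated tables of independent assays, without a shift common to all assays of an aorta. Single values were compared by exact permutation tests. The members, lists and tests were chosen with earlier results of these data known. Named were the members, a list of Drosha-skipping microRNAs, miR-451, miR-223, miR-511, a list of reference microRNAs, control RNAs, level neighbours and the 5 closest patterns, along with markers of tissues. Each aorta was counted as 1 mouse, as the replicates are labelled biological. Alternatives covered the scaling, reference RNAs, cutoffs, undetected wells, filters, variance model, the replicate block and leaving out each aorta.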

Additional observations from a re-analysis of the deposited data

How the results depend on the processing

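Over 21 alternatives each, neither miR-320 nor miR-484 passed the threshold (limma adjusted p from 0.0686 to 0.971 and from 0.0701 to 0.685). miR-484 stayed below 0, from -0.87 without normalization to -0.13 relative to U87 and Y1, and miR-320 turned to 0.014 relative to U87 and Y1. On the members' card U87, Y1, snoRNA135, snoRNA202 and U6 were later in Dicer_KO aortas by 0.698, 0.776, 0.297, 0.319 and 0.0603 cycles. Which of them stayed level was not tested. Leaving out 1 aorta moved miR-320 from -0.66 to -0.35 and miR-484 from -0.71 to -0.54. Relative to the median assay miR-320 ranged from -0.20 to -0.02 and miR-484 from -0.49 to -0.11 over 12 alternatives. With the median of the same card the differences were -0.06 and -0.21. The ratios to miR-451 kept their sign in 9 alternatives each, from -2.27 to -1.29 and from -2.53 to -1.38.

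The count of assays called lower, 7, was 24 at a Ct cutoff of 32, 13 with Ct 40 taken as measured, 20 over assays detected in all aortas and 0 with a variance trend and robust limma (101 at an unadjusted p under 0.05). That of assays called higher, 0, was 1 with mean centring, 3 after quantile normalization, and 2 each with snoRNA135 and snoRNA202, U87 and Y1, a cutoff of 32, assays detected in all aortas, or median centring, which was added after the data had been seen. Leaving out 1 aorta gave 5 to 55 lower and 0 to 9 higher, with 55 and 9 without Dicer_KO replicate 1 and 11 lower without Dicer_KO replicate 2.

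Replicate numbers are not stated to pair the mice, and same-numbered aortas deviated together at r = 0.18, -0.10 and 0.15. With the replicate block 7 assays were called lower and 0 higher, with miR-320 at -0.50 (limma adjusted p = 0.144) and miR-484 at -0.65 (limma adjusted p = 0.117). The block took miR-223 past the threshold (limma adjusted p = 0.0293). Sign flips between same-numbered aortas allow no p below 0.25 and leave a difference of means as it is. Relative to the median assay they gave an exact permutation p of 1.0 for miR-320 and 0.25 for miR-484. For each ratio to miR-451 the exact permutation p was 0.25, against 0.1 without pairing, both fixed by groups that were already apart. For the ratio of miR-320 to miR-484 it was 0.25 with the flips, against 0.5 without pairing.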
